A study of Rattus norvegicus with 23 samples.

Results

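The genes Egr1, Egr2, Arc, Dusp1, Nr4a1, Nr4a2 and Nr4a3 were examined in RNA from the dorsal striatum of 23 rats, as 7 of the 32552 genes counted. They were chosen as activity genes by their Ensembl identifiers, and an identifier was used only where its chromosome in the files was the one listed for that gene. The rats were adult male Long Evans rats of wild-type genotype, and each gave 1 library. The 6 control rats (CT, labelled Ct) self-administered saline and received no footshock. The other 17 rats self-administered methamphetamine (METH) at 0.1 mg/kg per infusion for 22 days and then received footshocks, which began at 0.18 mA and reached 0.36 mA by the end of 8 days. After 15 days of abstinence they had 12 days of a second METH phase, 3 days with footshocks of 0.3 mA, and another 15 days of abstinence. The 6 always shock-resistant rats (ASR, labelled SR) kept taking METH in both punishment phases, and the 6 always sensitive rats (AS, labelled SS) reduced their intake in both. The 5 delayed shock-resistant rats (DSR, labelled RSR) reduced their intake in the first phase and not in the second. Rats were killed on the day after a test of METH seeking. The METH groups were sorted by their behavior and not assigned to it. METH and footshock cannot be told apart in any comparison with CT rats, since every METH rat received both. In bulk tissue, fewer cells of a type and less RNA per cell also cannot be told apart.

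These genes are known as immediate early or early response genes, whose transcription starts soon after synaptic activity and needs no new protein. Calcium entry and receptor signaling act on them through MAP kinases and the transcription factors CREB and SRF, which bind the cAMP response element (CRE) and the CArG box. Psychostimulants are known to induce many of them acutely in striatal projection neurons. Egr1 and Egr2 encode zinc finger transcription factors. Arc encodes a synaptic protein that takes part in the endocytosis of AMPA receptors. Dusp1 encodes a phosphatase that inactivates MAP kinases and so acts as a brake on the pathway that induces it. Nr4a1, Nr4a2 and Nr4a3 encode orphan nuclear receptors that act as transcription factors, and Nr4a2 is best known for its role in midbrain dopamine neurons.

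On the Rnor6.0 genome, the files place Egr1 (ENSRNOG00000019422) at chr18:27657628-27661429 and Egr2 (ENSRNOG00000000640) at chr20:22454463-22459025. Arc (ENSRNOG00000043465) is at chr7:115907097-115910541, and Dusp1 (ENSRNOG00000003977) at chr10:16970626-16973418. Nr4a1 (ENSRNOG00000007607) is at chr7:142905758-142920216, Nr4a2 (ENSRNOG00000005600) at chr3:43111240-43119159, and Nr4a3 (ENSRNOG00000005964) at chr5:63781801-63821637. Egr2, Arc and Nr4a2 are transcribed from the minus strand and the others from the plus strand. None of the 7 shares a base with another annotated gene, and their counts are of reads in exons.

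The promoter windows that RefSeq gives for the GRCr8 build are shown because several of these genes varied together between rats, as described further on. Each window runs from 250 bases before to 50 bases after the start of the gene, 5′ to 3′ on the strand of the gene. Capitals mark matches on either strand to the CRE (TGACGTCA), its core site (TGACG, which the full element holds on both strands), the CArG box or the Egr motif (GCGNGGGCG). Windows were found for 5 of the 7 genes, and Arc and Nr4a3 had no entry. They lie at chr18:26736828-26737127 (plus strand) for Egr1, chr20:21054392-21054691 (minus) for Egr2, chr10:17184603-17184902 (plus) for Dusp1, chr7:134259888-134260187 (plus) for Nr4a1 and chr3:62104838-62105137 (minus) for Nr4a2.
Egr1: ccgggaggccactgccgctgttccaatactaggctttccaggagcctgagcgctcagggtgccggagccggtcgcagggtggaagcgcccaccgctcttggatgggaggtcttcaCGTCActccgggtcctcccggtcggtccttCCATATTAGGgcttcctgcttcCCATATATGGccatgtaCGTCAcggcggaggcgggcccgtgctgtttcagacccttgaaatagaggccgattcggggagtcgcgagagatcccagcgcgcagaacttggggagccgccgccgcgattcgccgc
Egr2: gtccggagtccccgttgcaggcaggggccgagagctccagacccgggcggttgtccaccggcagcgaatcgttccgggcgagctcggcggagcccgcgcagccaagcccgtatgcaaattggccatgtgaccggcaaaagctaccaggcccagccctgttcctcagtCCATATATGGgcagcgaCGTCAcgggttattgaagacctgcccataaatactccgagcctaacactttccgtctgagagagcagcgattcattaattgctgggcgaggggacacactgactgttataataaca
Dusp1: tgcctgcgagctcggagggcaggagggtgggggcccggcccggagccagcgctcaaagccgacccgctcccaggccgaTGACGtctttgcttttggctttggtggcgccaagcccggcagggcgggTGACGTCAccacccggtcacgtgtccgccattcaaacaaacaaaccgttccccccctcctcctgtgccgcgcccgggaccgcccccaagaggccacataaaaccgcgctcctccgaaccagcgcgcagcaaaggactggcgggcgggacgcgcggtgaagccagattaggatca
Nr4a1: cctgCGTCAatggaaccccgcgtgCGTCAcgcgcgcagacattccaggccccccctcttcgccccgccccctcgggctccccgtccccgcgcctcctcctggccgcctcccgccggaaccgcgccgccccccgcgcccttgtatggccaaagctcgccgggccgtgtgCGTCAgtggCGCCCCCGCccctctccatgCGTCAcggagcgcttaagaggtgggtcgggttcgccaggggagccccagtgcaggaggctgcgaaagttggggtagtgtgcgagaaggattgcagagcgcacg
Nr4a2: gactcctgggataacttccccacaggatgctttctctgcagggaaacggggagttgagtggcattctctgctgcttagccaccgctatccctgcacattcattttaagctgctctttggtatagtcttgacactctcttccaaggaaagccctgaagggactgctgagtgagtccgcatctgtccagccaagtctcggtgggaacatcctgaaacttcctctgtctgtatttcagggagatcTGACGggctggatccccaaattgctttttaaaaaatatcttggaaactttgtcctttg

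All 5 windows held a CRE core site, which 21.2% of the 33469 RefSeq windows hold. The Egr1 window held 2 CArG boxes and the Egr2 window 1, and 1.64% of all windows hold this element. The same 10 letters, CCATATATGG, began 83 bases before the start in both Egr genes, and a core site began in both at 66 bases before it. Among these windows the full CRE was found in that of Dusp1 alone, at 124 bases before the start, and 1.83% of all windows hold it. The Nr4a1 window had 4 core sites and 1 Egr motif, which 4.98% of all windows hold. The Nr4a2 window had a single core site 8 bases before the start. These are matches of letters and say nothing of binding.

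Egr1 and Arc had the highest levels of the 7 genes per length, and Egr2 and Nr4a3 the lowest. In CT rats the mean levels in RPKM, which divides by exon length, were 57.8 ± 14.4 for Egr1, 51.4 ± 20.6 for Arc, 32.3 ± 10.1 for Nr4a1, 20.6 ± 5.03 for Dusp1, 15.2 ± 3.83 for Nr4a2, 3.27 ± 1.16 for Egr2 and 2.6 ± 0.758 for Nr4a3 (SD, n = 6). Egr1 and Arc differed by less than the spread between these rats, as did Egr2 and Nr4a3. The order of the group means was the same in AS rats, from 37.8 ± 7.06 RPKM for Egr1 to 1.43 ± 0.563 RPKM for Nr4a3 (SD, n = 6). All 7 genes passed the filter on low counts, with 66 counts or more in every library. All levels that follow are in CPM (counts divided by library sizes after TMM scaling), a unit that compares rats for 1 gene and not genes with each other.

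The 4 groups were compared to ask how rats that reduced their METH intake under punishment and rats that did not differed in striatal gene expression. Library totals ranged from 18967015 to 28137676 counts, every DSR library was larger than every AS library, and mitochondrial genes took 11.6% to 15.9% of the counts in all rats but AS rat Grp7-R1 (19.6%). In edgeR's quasi-likelihood test with all groups in 1 fit, 0% of the 16275 genes tested passed a Benjamini-Hochberg adjusted p of 0.05 in each of the 8 comparisons. Between 699 genes (ASR vs DSR) and 4111 genes (DSR vs AS) had an unadjusted p under 0.05. With DESeq2 on all groups the adjusted threshold was passed by 884 genes for AS vs CT, by 726 for DSR vs AS, by 449 for the mean of ASR and DSR vs AS, and by at most 1 for each other comparison. Unadjusted p-values of single genes are from the edgeR fit, where none of the 7 genes passed the adjusted threshold in any comparison. Comparisons that share a group share its libraries, so their results are set side by side and are not independent. Shares of all genes at an unadjusted p under 0.05 are those of the fit with all rats. They were not counted for fits that left out a rat or took 1 rat code. Counts of the 7 genes in such fits show only how far a call depends on the rats used.

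**Figure D1:**
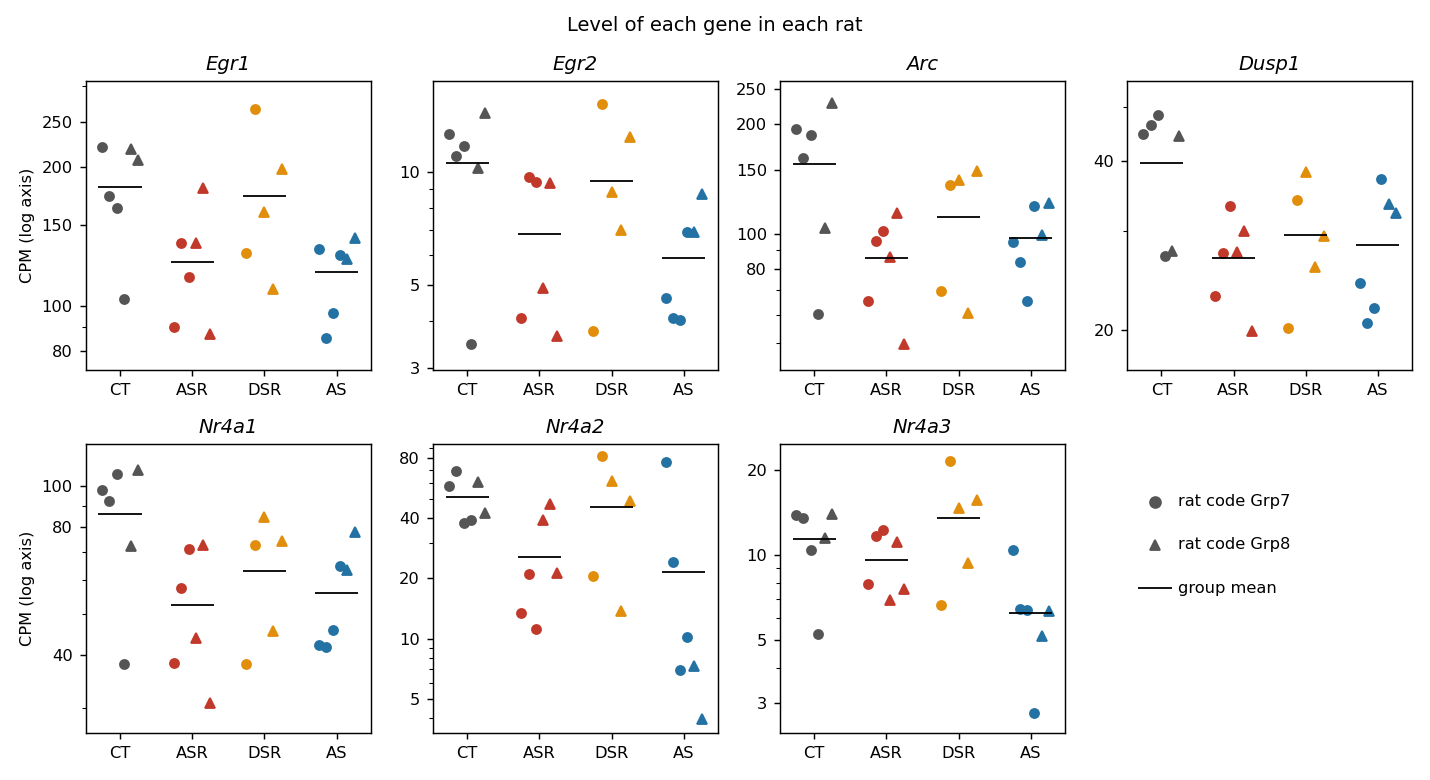
Level of each gene in CPM (log axis) in each of the 23 rats by group, with circles and triangles for rats whose code begins with Grp7 or Grp8 and a line at the group mean. The 6 AS rats sit between 85.4 and 140 CPM for Egr1, whereas 5 of the 6 CT rats sit at 163 CPM or above, and 1 AS rat stands apart from the other AS rats in Nr4a2 at 76.8 CPM.

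All 7 genes were lower in AS rats than in CT rats at an unadjusted p under 0.05, a measure by which 11.8% of all genes were lower. Most of these genes varied together between rats, as described further on. Their calls are therefore not independent of each other, in this or any other comparison. Their median log2 fold change was -0.68, beside 0.02 over all genes tested. Adjusted p-values of the 7 genes in edgeR's test began at 0.103. CT rat Grp7-R6 was the lowest CT rat in 6 of the 7 genes, and in each of those 6 it lay within or below the range of the AS rats.

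Egr1, the zinc finger factor, ranged from 103 to 221 CPM in CT rats (median 190) and from 85.4 to 140 CPM in AS rats (median 128). Only CT rat Grp7-R6 lay within the range of AS rats, and the other 5 CT rats were above all 6 AS rats. The log2 fold change was -0.61 (standard error 0.21, unadjusted p = 0.00861, adjusted p = 0.115 in edgeR), and a two-sided exact permutation test on log2 CPM gave p = 0.0238. Egr2 ranged from 3.49 to 14.3 CPM in CT rats (median 11.4) and from 4.03 to 8.72 CPM in AS rats (median 5.77). Again 5 CT rats were above every AS rat, while Grp7-R6 was below them all. Its log2 fold change was -0.84 (standard error 0.34, unadjusted p = 0.0204, and p = 0.0519 in the exact permutation test).

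Arc, the synaptic effector, ranged from 60.4 to 228 CPM in CT rats (median 174) and from 65.4 to 121 CPM in AS rats (median 97.1). Of the CT rats, 4 were above every AS rat, Grp8-L11 lay among them at 103 CPM and Grp7-R6 below them. The log2 fold change was -0.68 (standard error 0.28, unadjusted p = 0.0219), while the exact permutation test, which fits no count model, gave p = 0.106. Dusp1, the MAP kinase phosphatase, ranged from 27.1 to 48.4 CPM in CT rats (median 44.6) and from 20.6 to 37.2 CPM in AS rats (median 28.3). The same 4 CT rats were above every AS rat, and Grp7-R6 and Grp8-L11 lay among them. Its log2 fold change was -0.49 (standard error 0.18, unadjusted p = 0.0129, and p = 0.0519 in the exact permutation test).

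The nuclear receptors differed in how far the groups overlapped. Nr4a1 ranged from 38.2 to 109 CPM in CT rats (median 95) and from 41.8 to 77.9 CPM in AS rats (median 54.5), and its log2 fold change was -0.62 (standard error 0.25, unadjusted p = 0.0223, and p = 0.0693 in the exact permutation test). As for Arc, 4 CT rats were above every AS rat. Nr4a2 ranged from 38.0 to 68.9 CPM in CT rats (median 50.1) and from 3.96 to 76.8 CPM in AS rats (median 8.74). AS rat Grp7-L10 was above every CT rat, and the other 5 AS rats, at 24.0 CPM or less, were below every CT rat. The log2 fold change of Nr4a2 was -1.24 in edgeR (standard error 0.56, unadjusted p = 0.0367). The exact permutation test gave p = 0.0216 for a difference of mean log2 CPM of -1.99. Without AS rat Grp7-L10 the log2 fold change of Nr4a2 was -2.31 (unadjusted p = 8.56e-05, adjusted p = 0.00633 in edgeR). In 7 of the 23 fits that left out 1 rat each its unadjusted p was above 0.05. Over these 23 fits, 0 to 1377 of all genes passed an adjusted p of 0.05.

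Nr4a3 ranged from 5.27 to 14.0 CPM in CT rats (median 12.5) and from 2.77 to 10.4 CPM in AS rats (median 6.38). The lowest AS rat was Grp7-R9 and the highest Grp7-L10, which was just under the CT rats other than Grp7-R6. The log2 fold change of Nr4a3 was -0.87 (standard error 0.29, unadjusted p = 0.00607, adjusted p = 0.103 in edgeR, and p = 0.0238 in the exact permutation test). Its unadjusted p was under 0.05 in all 23 fits that left out 1 rat, as were those of Egr1, Egr2, Dusp1 and Nr4a1, and that of Arc in 22. DESeq2 on all groups gave Nr4a3 an adjusted p of 0.0409, and DESeq2 on only the AS and CT rats gave adjusted p-values of 0.0371 for Nr4a3, 0.018 for Egr1 and 0.049 for Egr2.

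**Figure D2:**
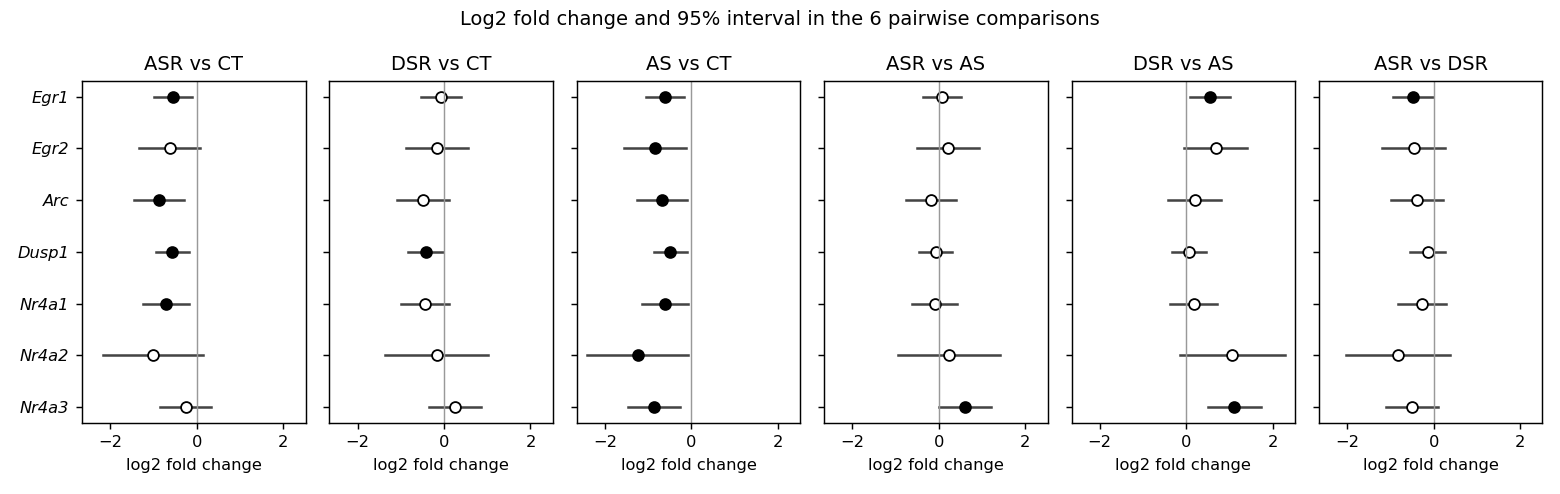
Log2 fold change (point) with its 95% interval (bar) from edgeR for each gene in the 6 pairwise comparisons, the first group minus the second, with filled points at an unadjusted p under 0.05. All 7 points are filled on the lower side in AS vs CT, with 4 filled for ASR vs CT and 1 for DSR vs CT.

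In ASR rats, which kept taking METH throughout, all 7 genes had a lower estimate than in CT rats. For 4 of them (Egr1, Arc, Dusp1 and Nr4a1) the unadjusted p was under 0.05, a measure by which 2.64% of all genes were lower. These 4 genes varied together between rats, so here too the calls are not independent. The median log2 fold change of the 7 genes was -0.63, beside 0.00 over all genes. Arc ranged from 49.7 to 114 CPM in ASR rats (median 91.0), and its log2 fold change was -0.86 (standard error 0.28, unadjusted p = 0.00486, and p = 0.0455 in the exact permutation test). All 6 ASR rats were below the median of the CT rats in each of the 7 genes. Dusp1 ranged from 19.9 to 33.3 CPM in ASR rats (median 27.5), and its log2 fold change was -0.57 (standard error 0.18, unadjusted p = 0.00491, and p = 0.0303 in the exact permutation test).

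Nr4a1 ranged from 30.8 to 72.5 CPM in ASR rats (median 50.7), and its log2 fold change from CT was -0.72 (standard error 0.25, unadjusted p = 0.00942, and p = 0.0563 in the exact permutation test). For Egr1, with 86.8 to 180 CPM (median 126), it was -0.54 (standard error 0.21, unadjusted p = 0.0181, and p = 0.0476 in the exact permutation test). These 4 genes had an unadjusted p under 0.05 in all 23 fits that left out 1 rat. Egr2 passed in 4 of those fits, without CT rat Grp7-R6 or ASR rat Grp7-R4, Grp7-R10 or Grp8-R7, and Nr4a2 in 2, without ASR rat Grp8-R7 or AS rat Grp7-L10. ASR rat Grp8-R8 was the lowest of its group in 5 genes and Grp8-R7 the highest in 4.

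Nr4a2 ranged from 11.2 to 47.4 CPM in ASR rats (median 21.2), and 4 of the 6 rats were below every CT rat. Its log2 fold change from CT was -1.01 (standard error 0.56), with an unadjusted p of 0.0834 in edgeR and p = 0.0173 in the exact permutation test on log2 CPM. The edgeR fit takes 1 dispersion for all groups, and the spread of Nr4a2 was uneven between them, with SDs of log2 CPM of 0.37 in CT, 0.82 in ASR, 1.09 in DSR and 1.53 in AS rats. Egr2 (log2 fold change -0.63, unadjusted p = 0.0735) and Nr4a3 (-0.25, unadjusted p = 0.376) had intervals from -1.33 to 0.07 and from -0.84 to 0.33. Nr4a3 ranged from 6.93 to 12.2 CPM in ASR rats (median 9.53), inside the CT range.

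Among DSR rats, which resisted punishment only on its return, 2 rats lay well below the rest in Arc, Nr4a1 and Nr4a2. The gap was smaller in Nr4a3, and values were graded in Egr1, Egr2 and Dusp1. Egr1 was at 130, 267, 160, 109 and 198 CPM in DSR rats Grp7-L2, Grp7-R7, Grp8-L4, Grp8-L9 and Grp8-R1. In the same order Arc was at 69.8, 136, 140, 60.6 and 149 CPM. Nr4a2 was at 20.5, 82.2, 61.6, 13.8 and 48.9 CPM, and Nr4a3 at 6.66, 21.5, 14.7, 9.39 and 15.6 CPM. Grp7-L2 and Grp8-L9 were the lower 2 of the 5 rats in all 7 genes, and 3 of the 5 rats were above every CT rat in Nr4a3.

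Only Dusp1, with 20.2, 34.1, 38.3, 25.9 and 29.5 CPM in that order, was lower in DSR than in CT rats at an unadjusted p under 0.05 (log2 fold change -0.43, standard error 0.19, unadjusted p = 0.0347, and p = 0.113 in the exact permutation test). By the same measure 1.87% of all genes were lower, and the 7 genes had a median log2 fold change of -0.17 beside 0.00 over all genes. Egr1 (-0.07), Egr2 (-0.16) and Nr4a2 (-0.17) had estimates near 0, with 95% intervals from -0.53 to 0.40, from -0.89 to 0.56 and from -1.37 to 1.02. Nr4a3 had a higher estimate (0.25, interval from -0.36 to 0.86). Arc and Nr4a1 had estimates of -0.49 (unadjusted p = 0.107) and -0.45 (unadjusted p = 0.104). Without CT rat Grp7-R6, Arc (-0.66, unadjusted p = 0.019) and Nr4a1 (-0.61, unadjusted p = 0.0197) also passed, which made 3 genes, whereas leaving out CT rat Grp7-L7, Grp7-R5, Grp7-R12 or Grp8-R11, or DSR rat Grp7-L2, Grp8-L9 or Grp8-R1, left 0.

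The mean of the 3 METH groups was lower than CT at an unadjusted p under 0.05 in 4 genes, the same 4 as in ASR vs CT, where 5.14% of all genes were lower by that measure. The log2 fold changes were -0.41 for Egr1 (unadjusted p = 0.0259), -0.68 for Arc (0.00518 as unadjusted p), -0.49 for Dusp1 (0.00249) and -0.60 for Nr4a1 (0.00708). Nr4a2 had the largest estimate, -0.81, with an unadjusted p of 0.0764. Egr1 lost its call in 3 of the 23 fits that left out 1 rat, those without CT rat Grp7-L7, Grp8-L11 or Grp8-R11 (unadjusted p up to 0.073), while Arc, Dusp1 and Nr4a1 passed in all 23. Egr2 passed in 8 of these fits and Nr4a2 in 2, so that the count lay between 3 and 6 genes.

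In both comparisons of resistant rats with AS rats, the smallest p-value of the 7 genes was that of Nr4a3, the nuclear receptor with the lowest level. DSR rats had more of it than AS rats (log2 fold change 1.11, standard error 0.29, unadjusted p = 0.000996, adjusted p = 0.0993 in edgeR, and p = 0.026 in the exact permutation test). Of the 5 DSR rats, 3 were above every AS rat, and the lowest DSR rat was above 5 of the 6 AS rats. The unadjusted p was under 0.05 in all 23 fits that left out 1 rat. Adjusted p-values were 0.0207 when DESeq2 took all groups, 0.0133 when it took these 2 groups, 0.0174 in edgeR without AS rat Grp7-L10 and 0.03 without DSR rat Grp8-L9.

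Egr1 was the other gene higher in DSR than in AS rats at an unadjusted p under 0.05, which made 2 of the 7 genes where 13.3% of all genes were higher. Its log2 fold change was 0.55 (standard error 0.22, unadjusted p = 0.0221, and p = 0.0823 in the exact permutation test). Egr2 (0.68, unadjusted p = 0.0653) and Nr4a2 (1.07, unadjusted p = 0.0776) had larger estimates that did not pass. Nr4a2 passed in 3 of the 23 fits that left out 1 rat, with log2 fold changes of 2.13 without AS rat Grp7-L10 (unadjusted p = 0.000257, adjusted p = 0.0184 in edgeR), 1.27 without DSR rat Grp7-L2 (unadjusted p = 0.0482) and 1.30 without DSR rat Grp8-L9 (unadjusted p = 0.0365). Egr2 passed without either of these DSR rats, and without CT rat Grp7-R6 or AS rat Grp8-R10. Arc (0.19), Dusp1 (0.06) and Nr4a1 (0.17) had intervals from -0.41 to 0.80, from -0.34 to 0.46 and from -0.38 to 0.72. Leaving out either of the low DSR rats, Grp7-L2 or Grp8-L9, raised the count to 4 genes, and leaving out DSR rat Grp7-R7 or AS rat Grp7-R1 lowered it to 1. Without Grp8-L9, 1954 of all genes passed an adjusted p of 0.05 in edgeR, where 0 did with all rats. The share of all genes at an unadjusted p was not counted in these fits. The rise is therefore no result about these 7 genes in particular.

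ASR and AS rats differed at an unadjusted p under 0.05 in Nr4a3 alone, where 5.15% of all genes were higher in ASR rats. The log2 fold change was 0.61 (standard error 0.29, unadjusted p = 0.0429, and p = 0.0368 in the exact permutation test), and 3 of the 6 ASR rats were above every AS rat. This call was lost in 8 of the 23 fits that left out 1 rat, those without ASR rat Grp7-R4, Grp7-R10 or Grp8-R7 or AS rat Grp7-R1, Grp7-R2, Grp7-R9, Grp8-L5 or Grp8-R10. Without AS rat Grp7-L10 both Nr4a3 and Nr4a2 passed, the latter with a log2 fold change of 1.30 in place of 0.24. The estimates of Egr1 (0.07), Dusp1 (-0.08) and Nr4a1 (-0.10) had intervals from -0.38 to 0.52, from -0.46 to 0.31 and from -0.63 to 0.43.

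The mean of ASR and DSR was higher than AS in Nr4a3 only (log2 fold change 0.86, standard error 0.26, unadjusted p = 0.00279, adjusted p = 0.124 in edgeR), where 11.5% of all genes were higher. Nr4a2 passed as well without AS rat Grp7-L10 (1.72, adjusted p = 0.0317 in edgeR), and Egr1 without DSR rat Grp8-L9. Leaving out Grp7-L10 also brought Nr4a3 to an adjusted p of 0.0256 in edgeR. In that fit 813 of all genes passed an adjusted p of 0.05, where 0 did with all rats. ASR rats were lower than DSR rats in Egr1 only (-0.48, standard error 0.22, unadjusted p = 0.0434, and p = 0.134 in the exact permutation test), where 2.04% of all genes were lower. That call was lost in 7 of the 23 fits that left out 1 rat, those without CT rat Grp7-R12, DSR rat Grp7-R7 or Grp8-R1, ASR rat Grp7-L4, Grp7-R4 or Grp8-R8, or AS rat Grp8-L5. Leaving out DSR rat Grp7-L2 raised the count to 2.

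The codes of the rats begin with Grp7 or Grp8, which the sources used here do not explain. Within Grp7 rats alone, 4 of the 7 genes were lower in AS than in CT rats at an unadjusted p under 0.05 and within Grp8 rats 2, and all 7 estimates were negative in both. The share of all genes lower by that measure was not counted in these fits, so the counts are no result about these 7 genes in particular. Nr4a2 had log2 fold changes of -0.79 in Grp7 and -3.19 in Grp8 rats for AS vs CT, and -0.95 and 2.67 for ASR vs AS. These rest on 4 CT, 3 ASR and 4 AS rats in Grp7 and on 2 CT, 3 ASR and 2 AS rats in Grp8. The Grp7 AS rats include Grp7-L10, at 76.8 CPM beside 6.97 to 24.0 CPM in the others. The difference between the 2 codes had an unadjusted p of 0.00443 for ASR vs AS (adjusted p = 0.999 in edgeR over all genes). Nr4a3 was similar in both for DSR vs AS, at 1.11 in Grp7 and 1.21 in Grp8 rats. With the code as a covariate no call of a single gene changed, and the smallest unadjusted p of the 7 genes for a difference between the codes was 0.343.

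**Figure D3:**
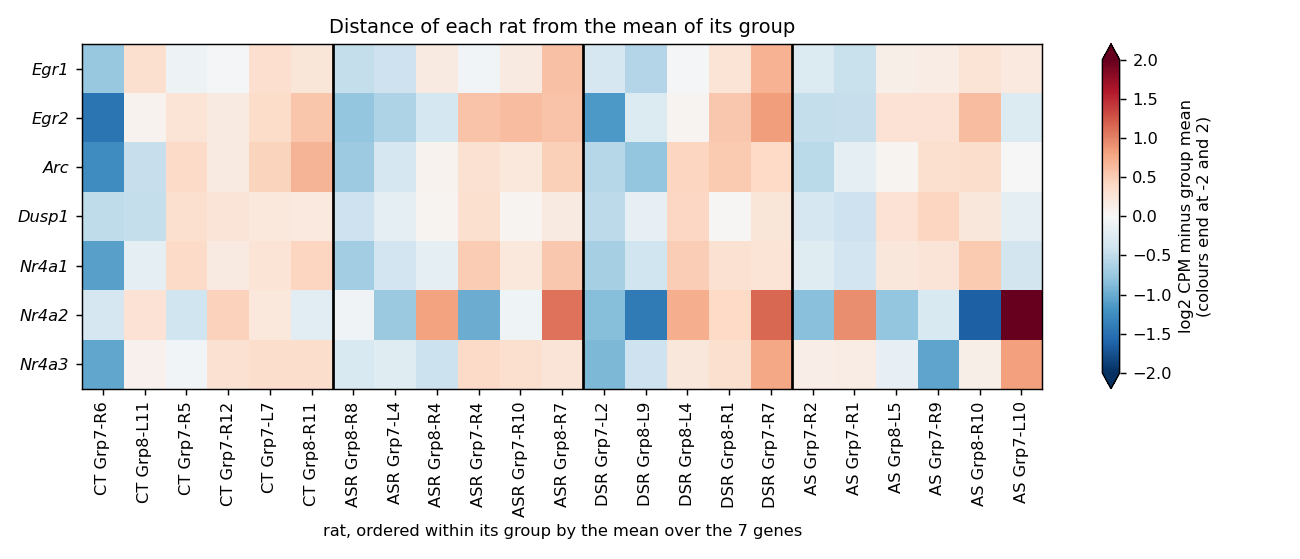
Log2 CPM minus the mean of the group, for each gene (rows) in each rat (columns, ordered within a group by the mean over the 7 genes), with red above and blue below the group mean. CT rat Grp7-R6 is below its group in all 7 genes, and the Nr4a2 row departs from the others in the AS rats.

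The members varied between rats of 1 group far more than most genes at their level. Within-group SDs of log2 CPM were 0.35 for Dusp1, 0.41 for Egr1, 0.49 for Nr4a1, 0.55 for Arc and Nr4a3, 0.66 for Egr2 and 1.04 for Nr4a2. Among the 500 genes nearest in mean level, 95% to 100% had a smaller SD, and the median SD of those genes lay between 0.11 and 0.22. The group means accounted for 21.8% (Egr2) to 40.4% (Nr4a3) of the sum of squares over the 23 rats. Within groups, the mean of the 7 genes had a Pearson r of -0.26 with the library total, 0.02 with the mitochondrial share and -0.44 with the number of genes detected, over 23 rats, and the part of these in the results was not tested.

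Rats high in one of these genes within their group tended to be high in others. After the group means were subtracted, r was positive in all 21 pairs, with a median of 0.58, and 15 pairs had an adjusted p under 0.05 (permutation test with 100000 resamples, two-sided, Benjamini-Hochberg over the 21 pairs). The 10 pairs among Egr1, Egr2, Arc, Dusp1 and Nr4a1 had r from 0.58 to 0.93, and all 10 passed. By Spearman's rho 9 of the 10 passed, and Egr1 with Dusp1 did not (rho 0.35, adjusted permutation p = 0.138). Egr2 and Nr4a1 had the highest r, 0.93 (Spearman's rho 0.84), and Arc and Nr4a1 had 0.92 (rho 0.89). Both pairs had an unadjusted permutation p of 1e-05, the smallest that the resamples can give. The values of all genes in a rat come from 1 library and share its depth.

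Over all 23 rats the pairs with Nr4a2 had lower r, from 0.01 (Dusp1) to 0.48 (Nr4a3), and only the pair with Nr4a3 passed (adjusted permutation p = 0.0268). Within Grp7 rats r of these 6 pairs was 0.10 to 0.70, and the pair with Nr4a3 passed. Within Grp8 rats it was 0.48 to 0.76 with a median of 0.60, and the pair with Egr1 passed (r = 0.76, adjusted permutation p = 0.0192). Grp8 holds 2 CT, 3 ASR, 3 DSR and 2 AS rats, so subtracting group means leaves few free values. The permutation test does not allow for this, its p-values there are too small, and no conclusion is drawn from calls within Grp8 rats. Nr4a3 lay between, with r of 0.63 with Egr2, 0.58 with Egr1, 0.57 with Arc, 0.53 with Nr4a1 and 0.31 with Dusp1. When the 2 rats farthest from the median of the first gene were left out of each pair, all 10 pairs among Egr1, Egr2, Arc, Dusp1 and Nr4a1 still passed, with r from 0.49 to 0.90, and no pair with Nr4a2 or Nr4a3 did. The calls of the 5 pairs with Nr4a2 or Nr4a3 that had passed were lost, with r of 0.36 to 0.44 in the 21 rats left (0.44 for Nr4a2 with Nr4a3, unadjusted permutation p = 0.0493). Within Grp7 rats (13) the 10 pairs had r from 0.81 to 0.95 and all passed. Within Grp8 rats (10) they had r from 0.55 to 0.94, and 8 passed by the p-values that are too small there.

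**Figure D4:**
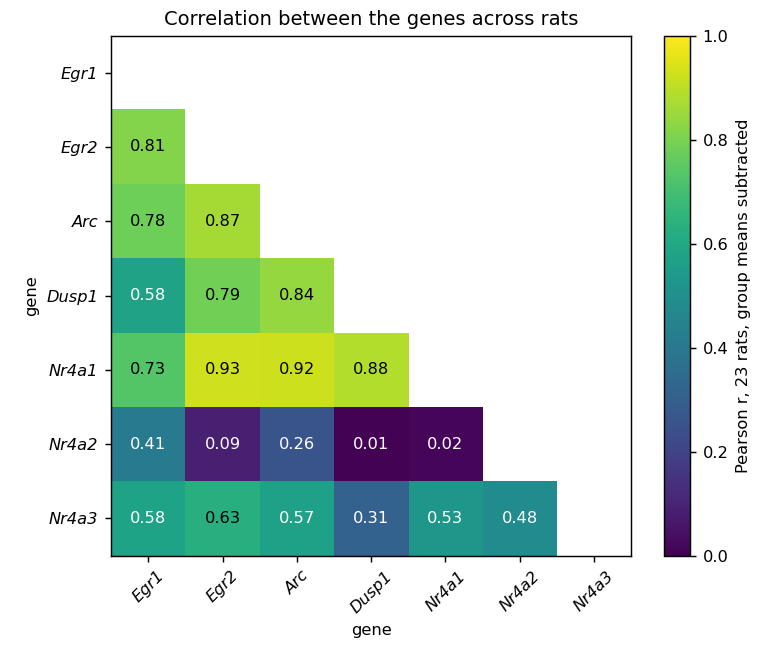
Pearson r of log2 CPM across 23 rats, after group means were subtracted, for each of the 21 pairs of genes (colour and number). Values are 0.58 to 0.93 among Egr1, Egr2, Arc, Dusp1 and Nr4a1, and 0.48 or below for every pair with Nr4a2.

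The ratio of Nr4a3 to Nr4a1 within a rat was looked at after the values were seen and is given without a test. It had a median of 0.14 in CT rats (0.10 to 0.16), 0.19 in ASR rats (0.15 to 0.25), 0.21 in DSR rats (0.17 to 0.30) and 0.11 in AS rats (0.04 to 0.25). The 3 AS rats with the most Nr4a1 had ratios from 0.04 to 0.08 and the other 3 from 0.14 to 0.25, the highest in Grp7-L10. Nr4a1 is the denominator of this ratio, so rats with more of it tend to have lower ratios in any case. No conclusion is drawn from this split. The ratio of Nr4a2 to Nr4a1 spanned a wider range in AS rats, from 0.05 to 1.82, than in CT rats, from 0.36 to 1.03.

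**Figure D5:**
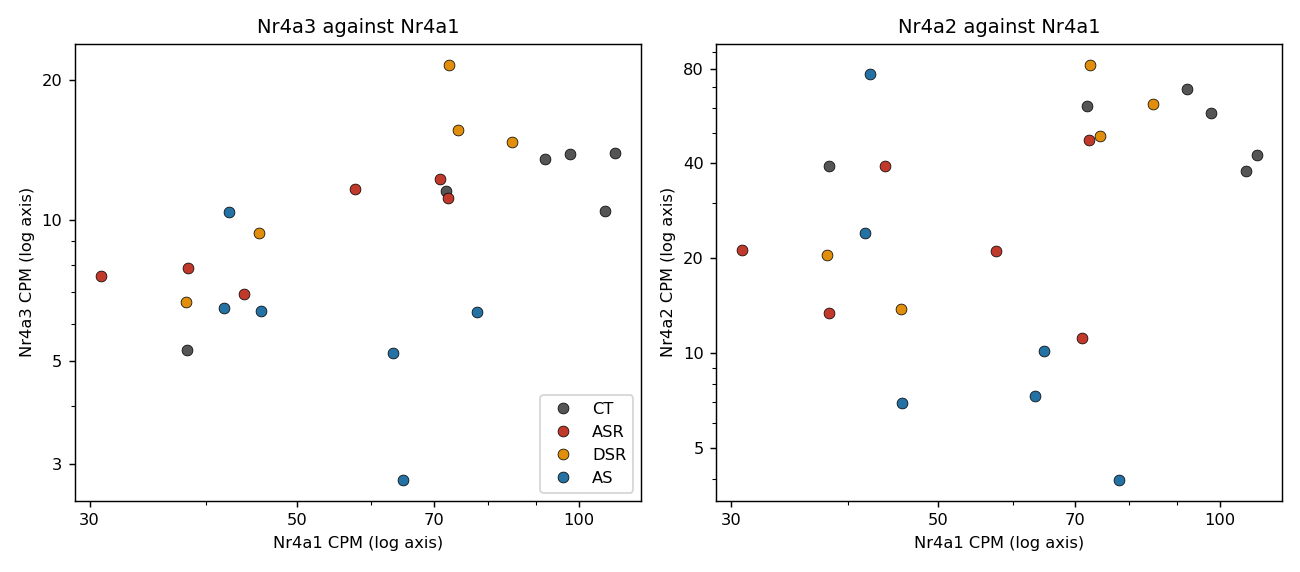
Nr4a3 (left) and Nr4a2 (right) against Nr4a1 in CPM (log axes), 1 point per rat, coloured by group. All 5 DSR and 6 ASR rats have 0.15 or more of Nr4a3 per Nr4a1, a mark taken from the lowest ASR rat. CT rat Grp8-L11 (0.160) and AS rats Grp7-L10 (0.246) and Grp7-R1 (0.155) reach it too. In the Nr4a2 panel 5 of the 6 AS rats, at 24.0 CPM or less, lie below every CT rat, as do 4 of the 6 ASR and 2 of the 5 DSR rats.

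The gene most like the mean of the 7 in its variation within groups was ENSRNOG00000009540 (chromosome 5, 151394524 to 151397603, minus strand on Rnor6.0), with r of 0.89 over 23 rats. Next came ENSRNOG00000015719 (chromosome 4, 117293620 to 117296082, minus strand), with r of 0.86. The latter had a log2 fold change of -0.59 in AS vs CT (unadjusted p = 0.00673) and of -0.52 in ASR vs CT (unadjusted p = 0.0148). The files pair neither with a gene symbol.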

How the data were processed

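RNA sequencing counts of 23 dorsal striatum libraries were used, with 6 rats in each group but DSR (5). The authors converted base calls with bcl2fastq 2.17, used Trimmomatic 0.36 to trim the paired-end reads of poly(A) libraries, STAR 2.5.2b to map these on Rnor6.0, and featureCounts of Subread 1.5.2 to count exonic reads for 32552 Ensembl genes. The deposited values are raw counts, and whether strand was used is not given in the sources used here. Library totals ranged from 18967015 to 28137676 counts. Rats of 1 group differed by more than sampling noise in all 55 pairs, so each was taken as its own replicate.

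Computed here were TMM factors, CPM, RPKM over the exon length in the files, and log2 fold changes, with edgeR 4.0.16 (R 4.3.3). The filter was filterByExpr (minimum count 10, minimum total count 15) and left 16275 genes. All 4 groups entered 1 quasi-likelihood fit with 19 residual degrees of freedom, and p-values were adjusted by Benjamini-Hochberg over all genes tested. The standard error is the one implied by the fold change and the F statistic. Exact permutation tests were two-sided on the difference of mean log2 CPM with a prior count of 2. Correlations used log2 CPM minus the group mean, with 100000 resamples. The resamples shuffled these values over all rats without allowing for the means subtracted, so p-values tend to be too small, most of all within Grp8 rats. The scripts were checked on simulated counts.

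The alternatives were RLE factors, no filter on low counts, DESeq2 1.42.0 on all groups and on 2 groups, edgeR on 2 groups, the Grp number of the rat code as a covariate or alone, and each rat left out in turn. The 7 genes, the lists and the tests were chosen with earlier results of these data known. All 7 were named by rule, as were the genes most like them, of which 2 are given. The files hold no gene symbols and the reference table pairs none with Ensembl identifiers, so lists of other activity genes, signaling genes, partners and cell type markers were not analysed here, and the tissue was not checked against markers. Promoter windows are from RefSeq (GRCr8), and no coordinate was converted between builds.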

Additional observations from a re-analysis of the deposited data

Results flagged for a closer look

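In AS rat Grp7-L10, Nr4a2 was at 76.8 CPM, far above the other 5 AS rats at 3.96 to 24.0 CPM (gap of 0.724 of the range of the 6 rats, above Dixon's critical value of 0.625). Each of the 28 sets of values (7 genes in 4 groups) was looked at in this way, and 1 set was flagged. Chance flags about 1 in 20 if values are normally distributed. The gap was taken on CPM and not on log2 CPM, so the flag holds for CPM only. On log2 CPM Grp7-L10 was at 6.26, beside 2.02 to 4.59 in the other AS rats. The same rat had the highest Nr4a3 of the AS rats (10.4 CPM), while its Egr1 (133 CPM), Arc (94.8 CPM), Dusp1 (24.2 CPM) and Nr4a1 (42.3 CPM) lay among those of the other AS rats. No member differed between rats coded Grp7 and Grp8 in any pairwise contrast at an adjusted p under 0.05 (smallest 0.611 in edgeR over 42 tests, 2 of them with an unadjusted p under 0.05, both of Nr4a2).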

How the results depend on the processing

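With RLE factors, no filter on low counts and the rat code as a covariate, every count of members kept its value within 1.5 times. Over all settings that left no rat out, 346 log2 fold changes of members kept direction and side of an unadjusted p of 0.05, 20 lost the call, 12 gained it and 14 changed sign, most of these near 0 and in fits of 1 rat code. For the mean of ASR and DSR vs AS, Dusp1 became 0.00012 with RLE factors, 0.0015 with no filter and 0.0011 with DESeq2 on all groups, and Arc became -0.019 with the code as a covariate. Among Grp7 rats alone, DSR vs CT gave 0.27 for Egr1 and 0.0092 for Nr4a2, ASR vs AS gave 0.10 for Dusp1, 0.19 for Nr4a1 and -0.95 for Nr4a2, and ASR vs DSR gave 0.041 for Dusp1 and 0.0086 for Nr4a1. Among Grp8 rats, ASR vs AS gave -0.39 for Egr2, and DSR vs AS gave -0.067 for Dusp1 and -0.038 for Nr4a1. The causes were not tested, but fits of 1 code hold 13 or 10 rats.

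Counts of members at an unadjusted p under 0.05 became 0 (DSR vs CT), 4 (AS vs CT), 0 (ASR vs AS) and 2 (ASR vs DSR) in Grp7 rats, 0 (DSR vs CT) and 2 (AS vs CT) in Grp8 rats, and 0 in ASR vs DSR with edgeR on 2 groups. The share of all genes at that p was not counted in these fits. Counts of members at an adjusted p under 0.05 were 0 in edgeR on all groups, 1 each in AS vs CT, DSR vs AS and the mean of ASR and DSR vs AS with DESeq2 on all groups, and 3 in AS vs CT and 1 in DSR vs AS with DESeq2 on 2 groups. Counts of all genes at an adjusted p under 0.05, also 0 in edgeR on all groups, were 884 (AS vs CT), 726 (DSR vs AS), 1 (ASR vs DSR), 1 (METH vs CT) and 449 (mean of ASR and DSR vs AS) with DESeq2 on all groups. They were 15 (ASR vs CT), 1 (DSR vs CT), 936 (AS vs CT), 21 (ASR vs AS) and 1777 (DSR vs AS) with DESeq2 on 2 groups, 1 (ASR vs CT) with edgeR on 2 groups, and 86 (AS vs CT), 20 (ASR vs AS) and 32 (DSR vs AS) in Grp8 rats.

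Leaving out each rat in turn gave 0 to 3 members in DSR vs CT, 0 to 2 in ASR vs AS, 1 to 4 in DSR vs AS, 0 to 2 in ASR vs DSR and 1 to 2 in the mean of ASR and DSR vs AS at an unadjusted p under 0.05. The share of all genes at that p was not counted here either. At an adjusted p under 0.05 it gave 0 to 2 members in AS vs CT, DSR vs AS and the mean of ASR and DSR vs AS, and 0 to 1377, 0 to 1954 and 0 to 813 of all genes, the highest without CT rat Grp7-R5, DSR rat Grp8-L9 and AS rat Grp7-L10. Of 1288 log2 fold changes, 40 changed sign. They ranged from -0.29 to 0.054 for Egr1, -0.41 to 0.038 for Egr2 and -0.51 to 0.051 for Nr4a2 in DSR vs CT. In ASR vs AS they ranged from -0.054 to 0.17 for Egr1, -0.15 to 0.019 for Dusp1, -0.21 to 0.029 for Nr4a1 and -0.023 to 1.30 for Nr4a2, and in DSR vs AS from -0.035 to 0.19 for Dusp1. For the mean of ASR and DSR vs AS they ranged from -0.074 to 0.089 for Arc, from -0.074 to 0.088 for Dusp1 and from -0.025 to 0.16 for Nr4a1.

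Of the 21 pairs, 13 passed with Spearman's rho, and in Grp7 and in Grp8 rats, 15 with a prior count of 0.5, and 10 without the 2 farthest rats. The count in Grp8 rats rests on permutation p-values that are too small, since few values are free after group means are subtracted. Pairs with Nr4a2 that changed sign had -0.0030 for Dusp1 in ranks and -0.051 for Egr2, -0.11 for Dusp1 and -0.035 for Nr4a1 without those rats. No paired analysis was possible because no rat code is shared between groups. Groups of 5 or 6 rats and the spread of these genes, which exceeds that of most genes at their level, limit what could be detected. Every member had 66 counts or more in each library.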
